A study of Mus musculus with 6 samples.

Results

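The genes described here belong to the Notch and Hedgehog signalling pathways, and were read in keratinocytes of mouse back skin with and without the K14ΔNLef1 transgene. A list of 43 pathway genes was used, 27 of the Notch pathway and 16 of the Hedgehog pathway, and a gene was kept when at least 1 probe set of the array was annotated with exactly its symbol and no other. This left 35 genes of the 11280 measured, 24 of the Notch pathway and 11 of the Hedgehog pathway. Rbpj, Maml1, Maml2, Hhat, Smo, Boc, Gli2 and Kif7 had no such probe set and were not analysed here. The Notch genes were read by 336 probe sets and the Hedgehog genes by 138, with 3 to 39 per gene.

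The samples were 3 wild type and 3 K14ΔNLef1 epidermis samples, all from females of 9.5 weeks on a C57BL6/CBA background, and the labels call them biological replicates. The transgene carries Lef1, a transcription factor of the Wnt pathway, without its N-terminal stretch, which is the part that binds beta-catenin, and the keratin 14 promoter drives it in basal keratinocytes. The labels call the keratinocytes unfractionated, so the values can mix basal, suprabasal and follicle cells with other cell types, for some of which markers are given below. The founder line of the transgene is not given in the labels used here. Each sample was hybridised to 1 exon array, on which several probe sets read different stretches of a gene. The probe sets of a gene were averaged on the log2 intensity scale to give its value, and a difference is K14ΔNLef1 minus wild type on that log2 scale, so that 1 stands for a 2-fold difference.

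Notch receptors are cut by gamma-secretase when a Jagged or Delta ligand on a neighbouring cell binds them, and the freed intracellular part joins Rbpj and a Mastermind protein on DNA to switch on genes such as Hes1 and Hey1. In epidermis Notch is known for driving basal cells into the suprabasal layers and for its part in the hair follicle. Hedgehog ligands bind Ptch1, which releases Smo and lets Gli factors act, and in skin this pathway is known for the growth of hair follicles and, when overactive, for basal cell carcinoma.

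Lef1 checked the labels. It read 5.81, 7.02 and 6.26 in wild type samples against 11.11, 11.13 and 11.24 in transgenic ones, so the genotypes were far apart. The keratin genes Krt5 and Krt14, which mark basal keratinocytes, lay between 11.98 and 12.48 and between 12.81 and 13.06 over all arrays. Of the 12 measured basal keratinocyte markers 1, Krt14, had a higher mean in K14ΔNLef1, or 8.33% beside 42.8% of all genes. For 5 of the 12 the genotypes did not overlap, 41.7% beside 18.7% of all genes, and none passed the test given below. K14ΔNLef1 replicate 1 stood apart: its mean correlation with the other arrays over all probe sets was 0.835 against 0.899 to 0.903 for the others, and its median intensity was 154.2 against 190.0 to 203.2. For 42.3% of all genes it gave the lowest of the 6 values, and for 21.9% the highest. Among the members it gave the lowest value for 6 of 24 Notch genes and 2 of 11 Hedgehog genes. Results are therefore also given without it. The median difference over all genes was -0.054 as deposited and 0.054 after equalising the array medians, a shift of 0.109 that applies to every gene below.

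Promoters are shown for 3 of the members described in full below: Hes5 and Maml3, of the Notch pathway, for their match to the Rbpj motif, and Disp1 for the match to the Tcf and Lef motif in both of its windows. RefSeq promoter windows of build GRCm38.p6 were found for 29 of the 35 members, 35 windows in all, and the 250 bases before each gene start were searched on both strands. The motifs were TGGGAA, the core bound by Rbpj, CCACCCA, part of the site bound by Gli factors, and CTTTGA, one form of the site bound by Tcf and Lef factors. Matches of different motifs may share bases, and capitals mark each match on either strand to the 1 motif named for that gene. Hes5, a Notch target gene, held 2 matches to TGGGAA, starting 226 and 82 bases before its start, at chr4:154960673-154960922 on the plus strand. Maml3, a Mastermind coactivator gene, held 1 at 185 bases, at chr3:52105007-52105256 on the minus strand. Disp1, whose product releases Hedgehog ligands, had 2 windows, both with 1 match to CTTTGA, 46 bases before the start at chr1:183221530-183221779 and 237 bases before it at chr1:183147558-183147807, both windows on the minus strand.
Hes5: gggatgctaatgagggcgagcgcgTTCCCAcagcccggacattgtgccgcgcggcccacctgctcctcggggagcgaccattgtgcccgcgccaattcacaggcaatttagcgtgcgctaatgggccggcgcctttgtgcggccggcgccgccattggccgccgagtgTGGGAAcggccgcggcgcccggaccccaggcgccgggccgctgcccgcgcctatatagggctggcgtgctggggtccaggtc
Maml3: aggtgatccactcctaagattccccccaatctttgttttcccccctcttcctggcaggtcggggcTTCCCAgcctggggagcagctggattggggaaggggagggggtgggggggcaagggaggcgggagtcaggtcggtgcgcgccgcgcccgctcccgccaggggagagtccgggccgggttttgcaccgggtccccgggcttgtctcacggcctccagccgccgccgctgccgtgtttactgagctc
Disp1, first window: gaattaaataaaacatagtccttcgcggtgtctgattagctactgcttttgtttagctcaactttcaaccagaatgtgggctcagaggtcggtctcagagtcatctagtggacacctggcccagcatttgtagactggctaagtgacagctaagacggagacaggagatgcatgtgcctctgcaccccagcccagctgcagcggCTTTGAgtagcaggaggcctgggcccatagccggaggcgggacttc
Disp1, second window: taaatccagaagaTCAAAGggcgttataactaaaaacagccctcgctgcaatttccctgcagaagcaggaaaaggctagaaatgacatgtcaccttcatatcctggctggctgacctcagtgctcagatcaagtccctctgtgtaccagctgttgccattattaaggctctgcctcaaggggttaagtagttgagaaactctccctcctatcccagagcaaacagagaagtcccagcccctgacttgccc
TGGGAA was found in 20% of the 25 Notch windows and 21.6% of all 32851 windows, in Hes5, Hey2, Lfng, Maml3 and Psen2. CCACCCA was found in 12% of the Notch windows, in Lfng, Nrarp and Numb, in none of the 10 Hedgehog windows and in 8.11% of all windows. CTTTGA was found in 4% of the Notch windows, in Ncstn, in 20% of the Hedgehog windows, both of Disp1, and in 13.8% of all windows. A match describes letters in this window and shows no binding.

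No member of either pathway passed the test between the genotypes. With limma and Benjamini-Hochberg adjustment over all 11280 genes at a threshold of 0.05, 0 of the 24 Notch genes and 0 of the 11 Hedgehog genes passed, beside 1.16% of all genes (0.328% higher and 0.833% lower), and the smallest adjusted p among the members was 0.393. At an unadjusted p under 0.05 by the same limma fit 1 of the 35 was left, Maml3, or 2.86% of the members beside 11.8% of all genes, 4.21% in the higher and 7.58% in the lower direction. Of the 35, 20 had a higher mean in K14ΔNLef1 and 15 a lower one, or 57.1% higher beside 42.8% of all genes, and differences as deposited ran from -0.60 for Jag1 to 0.38 for Hey1. The count of higher members moved with scaling, as it did over all genes: it was 26 of 35, beside 6375 of 11280 genes, after equalising the array medians, and 27 of 35, beside 6455 of 11280, after quantile normalization. The limma 95% intervals are for single genes, on the mean of the probe sets as deposited, and do not cover larger differences of single probe sets. For 33 of the 35 the interval lay within a 2-fold difference of intensity either way, and for 18 within 1.5-fold. Jag1, with an interval from -1.21 to 0.02, and Disp1, with one from -0.53 to 1.03, were the 2 whose interval reached past 2-fold. The samples are bulk, so fewer cells of a type and less RNA per cell cannot be told apart. Without K14ΔNLef1 replicate 1 again 0 of the 35 passed, beside 2.12% of all genes in that fit.

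**Figure D1:**
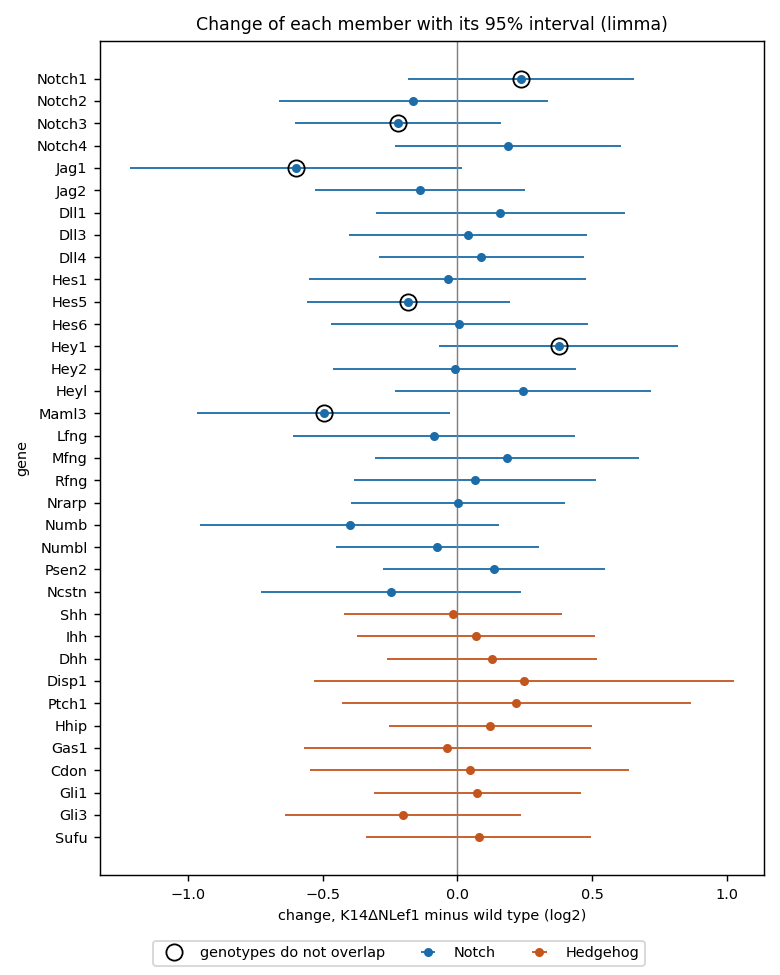
Difference of each of the 35 members, K14ΔNLef1 minus wild type (log2, horizontal axis), with its limma 95% interval, Notch genes in blue and Hedgehog genes in orange. Circles mark the 6 genes whose genotypes did not overlap, all of them Notch genes, and no interval but that of Maml3 leaves out 0.

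Of the members, 6 had no overlap between the 3 wild type and the 3 K14ΔNLef1 values, which is 17.1% of them beside 18.7% of all genes. All 6 were Notch genes, 25% of the 24, and no Hedgehog gene was among them. Notch1 and Hey1 were higher, beside 6.91% of all genes without overlap in that direction, and Notch3, Jag1, Hes5 and Maml3 were lower, beside 11.8%. After equalising the array medians, or after quantile normalization, Notch1, Jag1 and Maml3 still did not overlap, while Notch3, Hes5 and Hey1 did. Dll1 no longer overlapped under either scaling, and Numb under the first.

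**Figure D2:**
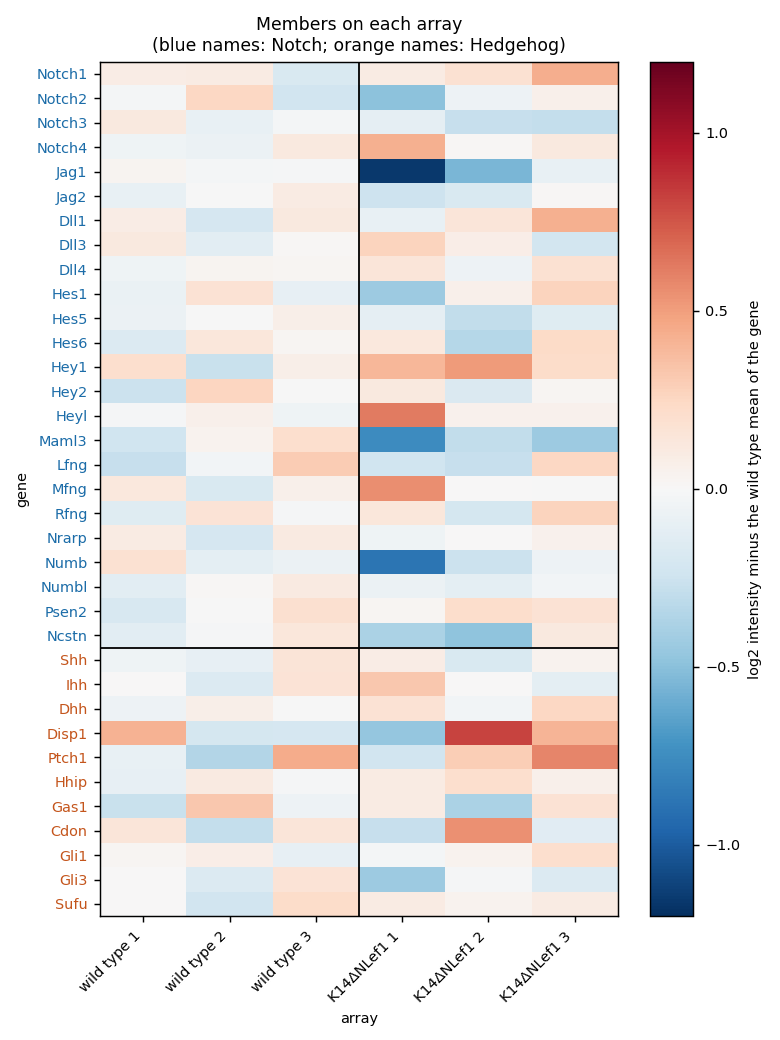
Log2 intensity of each member on each of the 6 arrays minus the wild type mean of that gene (colour scale from -1.2 to 1.2), Notch genes above the line and Hedgehog genes below it. Jag1 and Numb are lowest on K14ΔNLef1 replicate 1, and Disp1 is highest on K14ΔNLef1 replicate 2 and on wild type replicate 1.

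Among the 4 Notch receptors, 2 were higher and 2 lower on average. Notch1, the main receptor of keratinocytes, read 8.80, 8.81 and 8.54 in wild type and 8.81, 8.90 and 9.15 in K14ΔNLef1. The lowest transgenic value lay just above the highest wild type value, and replicate 3 of each genotype was farthest out. The difference was 0.24 (SE 0.18), with a limma adjusted p of 0.679. Notch3 read 7.93, 7.73 and 7.79 in wild type and 7.71, 7.54 and 7.53 in K14ΔNLef1. The gap between its genotypes was smaller than the spread of the wild type arrays, and the difference of -0.22 (SE 0.17) had a limma adjusted p of 0.672. Notch2, a receptor close in sequence to Notch1, averaged 7.95 ± 0.24 in wild type against 7.78 ± 0.29 in transgenic samples (SD, n = 3), a difference of -0.16 that was -1.28e-05 without K14ΔNLef1 replicate 1. Notch4, known from endothelial cells, averaged 6.97 ± 0.10 and 7.15 ± 0.21 (SD, n = 3), and its highest value, 7.39, was that of K14ΔNLef1 replicate 1. The mean of 12 measured endothelial marker genes was 0.28 above wild type on that same array, beside -0.08 and 0.15 on replicates 2 and 3 and -0.01 to 0.01 in wild type. None of the 12 passed and 9 were higher. The means of some other marker lists were also highest on that array, which gave the highest value for 21.9% of all genes and the lowest for 42.3%. The 14 measured fibroblast and dermal papilla markers averaged 0.22, 0.003 and 0.05 on K14ΔNLef1 replicates 1, 2 and 3, with 12 higher. The 7 measured muscle and pericyte markers averaged 0.41, 0.16 and 0.31, with 5 higher, and none of either list passed. Of the endothelial, fibroblast and muscle markers, 7, 8 and 3 were among the lowest 25% of genes. The part of these lists in the Notch4 values was not tested.

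Jag1 had the largest difference of all members. This ligand of basal and follicle keratinocytes read 8.70, 8.64 and 8.65 in wild type and 7.51, 8.11 and 8.58 in K14ΔNLef1. The wild type arrays lay close together, and the transgenic ones spread from well below them to just under them. The difference was -0.60 (SE 0.27), 1.51-fold lower, with a limma adjusted p of 0.442. It was -0.32 without K14ΔNLef1 replicate 1 and -0.85 without replicate 3, with limma adjusted p between 0.193 and 0.802 over the 6 fits with 1 array left out. In the fit with array weights, which gave K14ΔNLef1 replicate 1 a weight of 0.15 and replicate 2 one of 5.18, Jag1 passed with a limma adjusted p of 0.0482, beside 1296 genes of all. The 12 measured basal keratinocyte markers averaged -0.51, -0.25 and -0.07 on K14ΔNLef1 replicates 1, 2 and 3, and -0.04 to 0.02 in wild type. Jag1 had the same order on these arrays, but so did the mean of all genes, at -0.25, -0.04 and 0.05. Of the 12, 11 were lower and none passed, and their part in the Jag1 values was not tested. The second Jagged ligand gene, Jag2, averaged 8.64 ± 0.09 and 8.50 ± 0.14 (SD, n = 3), a difference of -0.14.

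The Delta ligands had smaller differences. Dll1, a Delta ligand of basal epidermal cells, averaged 7.34 ± 0.18 in wild type against 7.499 ± 0.26 in transgenic samples, and Dll4, the Delta ligand of endothelial cells, 6.44 ± 0.05 and 6.52 ± 0.13 (SD, n = 3). Dll3, a divergent Delta protein, had a difference of 0.04. Their limma adjusted p was 0.809, 0.881 and 0.957.

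None of the 6 measured Hes and Hey genes, transcriptional repressors that Notch switches on, passed. As deposited 3 were higher and 3 lower on average, and 5 were higher after equalising the medians or quantile normalization. Hey1 read 6.601, 6.135 and 6.473 in wild type and 6.802, 6.915 and 6.619 in K14ΔNLef1. Its highest wild type value lay just under its lowest transgenic one, and the difference of 0.38 (SE 0.19) had a limma adjusted p of 0.519. Hes5, whose promoter is printed above, read 7.74, 7.80 and 7.88 in wild type and 7.70, 7.52 and 7.66 in K14ΔNLef1. Each transgenic value lay under each wild type value, with a difference of -0.18 (SE 0.16) and a limma adjusted p of 0.723. Hes1, the Hes gene best known in epidermis, read 7.69, 7.95 and 7.67 against 7.33, 7.83 and 8.04, so that the transgenic arrays gave both its lowest and its highest value. Its difference was -0.04, and 0.17 without K14ΔNLef1 replicate 1. Heyl, which is also known from vascular smooth muscle, differed by 0.24, and by 0.05 without K14ΔNLef1 replicate 1. Its highest value, 7.42, was on that array, where the endothelial, fibroblast and muscle markers were also highest. On K14ΔNLef1 replicates 2 and 3 Heyl read 6.85 and 6.84, where the muscle and pericyte markers averaged 0.16 and 0.31. The part of these lists in the Heyl values was not tested. Hes6 and Hey2 differed by 0.007 and -0.011.

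Maml3 was the 1 member with an unadjusted limma p under 0.05. This Mastermind coactivator, the one measured gene of the Notch complex on DNA, read 7.48, 7.77 and 7.92 in wild type and 6.96, 7.43 and 7.29 in K14ΔNLef1. All 3 transgenic values lay under the lowest wild type value. The difference of -0.50 (SE 0.20), 1.41-fold lower, had a limma p of 0.0408 and an adjusted p of 0.393, and ran from -0.62 to -0.36 with 1 array left out.

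Of the 6 measured genes that tune the receptor, 3 were higher and 3 lower as deposited, and 5 were higher after equalising the medians or quantile normalization. Numb, which antagonises Notch in dividing cells, read 9.20, 8.90 and 8.95 in wild type and 8.14, 8.76 and 8.95 in K14ΔNLef1. The low mean of the transgenic group came mostly from replicate 1: the difference was -0.40 (SE 0.24) with a limma adjusted p of 0.589, and -0.16 without that array and -0.57 without replicate 3. Numbl, its close relative, differed by -0.07. The fringe genes Lfng, Mfng and Rfng, whose enzymes add sugars to Notch and alter which ligand it answers, differed by -0.09, 0.19 and 0.07. Mfng was at 7.55 on K14ΔNLef1 replicate 1, its highest value, and without that array its difference was 5.56e-05. Nrarp, a feedback inhibitor, differed by 0.0016. Of the gamma-secretase subunits, Ncstn, nicastrin, read 8.64, 8.76 and 8.92 in wild type and 8.399, 8.29 and 8.89 in K14ΔNLef1. Replicate 3 of the transgenic group lay among the wild type arrays and the other 2 lay below them, with a difference of -0.25 (SE 0.21) and a limma adjusted p of 0.709, from -0.43 without that replicate 3 to -0.13 without replicate 2. Psen2, a presenilin, differed by 0.14.

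**Figure D3:**
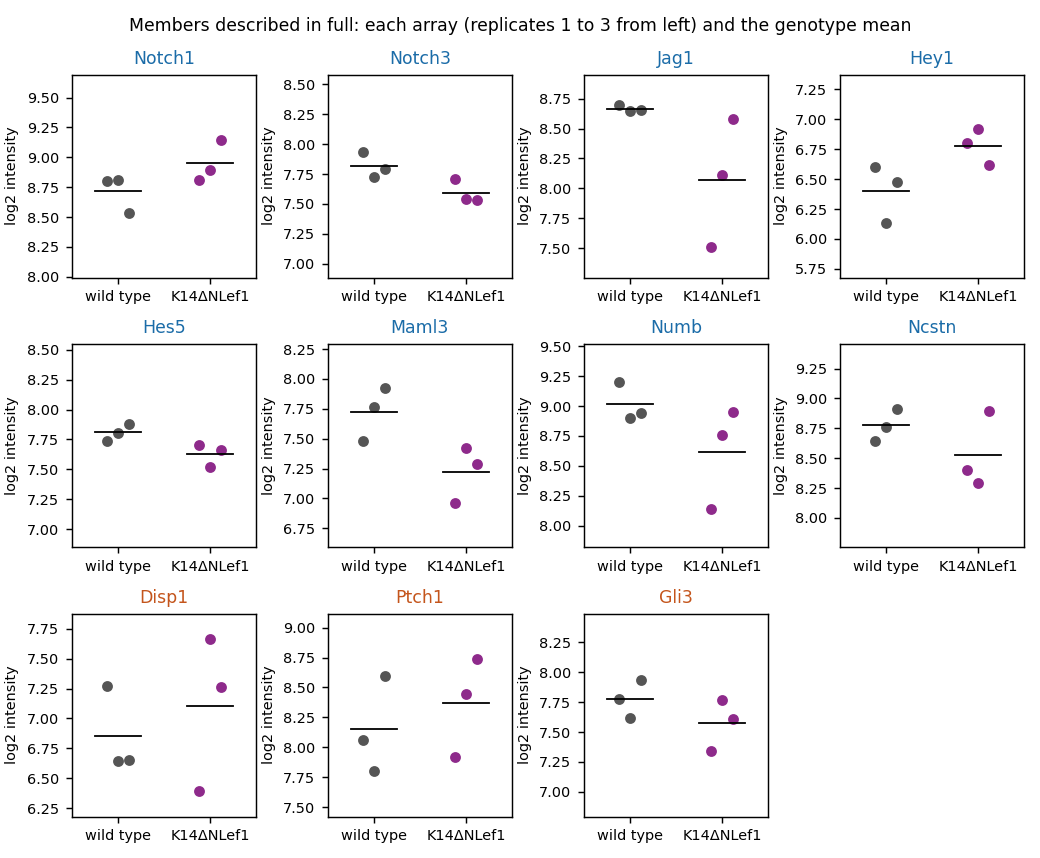
Log2 intensity (vertical axis, a span of 1.7 in each panel) of the 11 members described in full, with 1 point per array, wild type in grey and K14ΔNLef1 in purple, and a line at each genotype's mean. Jag1 is tight in wild type and spread in K14ΔNLef1, and the 3 Hedgehog genes in the last row overlap between the genotypes.

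In the Hedgehog pathway the genotypes overlapped for all 11 measured genes. Shh, Ihh and Dhh, the 3 ligands, averaged 6.88 ± 0.14, 6.87 ± 0.16 and 6.39 ± 0.07 in wild type against 6.86 ± 0.15, 6.94 ± 0.23 and 6.52 ± 0.15 in transgenic samples (SD, n = 3). Their limma adjusted p was 0.983, 0.922 and 0.820. Disp1 read 7.27, 6.64 and 6.66 in wild type and 6.39, 7.66 and 7.26 in K14ΔNLef1. K14ΔNLef1 replicates 2 and 3 were high, replicate 1 gave the lowest value, and wild type replicate 1 lay as high as transgenic replicate 3. The difference was 0.25 (SE 0.34), and 0.61 without K14ΔNLef1 replicate 1, with limma adjusted p of 0.827 and 0.318. The arrays with high Disp1 were also those with high T cell markers: the 9 measured markers averaged -0.25, 1.32 and 0.83 on K14ΔNLef1 replicates 1, 2 and 3 and 0.41, -0.29 and -0.12 on wild type replicates 1, 2 and 3, relative to the wild type mean. Of the 9, 8 were higher and none passed. The 11 measured Langerhans cell markers, of which 10 were higher and none passed, averaged 0.11, 1.22 and 0.68 on the transgenic arrays and 0.35, -0.31 and -0.04 in wild type. Of the 6 Disp1 probe sets, 4419370 read 4.36, 8.27 and 8.97 on K14ΔNLef1 replicates 1, 2 and 3. In wild type it read 5.07, 5.43 and 5.12, so it was not high on wild type replicate 1. The high Disp1 values thus did not all come from the same probe sets. Over its 6 probe sets the Disp1 difference ran from -0.49 to 1.99, the latter that of 4419370. With only the brighter probe sets, those at or above the median of all, the difference of Disp1 was -0.19. The part of either list in the Disp1 values was not tested.

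Among the genes that receive the signal, Ptch1, both receptor and target, read 8.06, 7.80 and 8.59 in wild type and 7.92, 8.45 and 8.74 in K14ΔNLef1. Each genotype spread over about as much as the other, and the difference of 0.22 (SE 0.28) had a limma adjusted p of 0.816, and ran from 0.033 without K14ΔNLef1 replicate 3 to 0.44 without replicate 1. Hhip, a decoy receptor and target, averaged 5.06 ± 0.10 and 5.18 ± 0.07 (SD, n = 3). The coreceptor genes Cdon and Gas1 differed by 0.05 and -0.04, with the highest Cdon value, 8.83, on K14ΔNLef1 replicate 2. Of the transducers, Gli3, which acts mainly as a repressor, read 7.78, 7.61 and 7.94 in wild type and 7.34, 7.77 and 7.61 in K14ΔNLef1, a difference of -0.20 (SE 0.19) with a limma adjusted p of 0.734. It ran from -0.30 without K14ΔNLef1 replicate 2 to -0.087 without replicate 1. Gli1, whose transcription is the usual readout of the pathway, averaged 6.51 ± 0.09 and 6.58 ± 0.11 (SD, n = 3), a difference of 0.07 with an interval from -0.31 to 0.46. Sufu, which holds Gli factors back, differed by 0.08.

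Set against each other, the Notch genes averaged lower than the Hedgehog genes in K14ΔNLef1, with the arrays of the genotypes overlapping. The mean difference over the Notch members was -0.04 and over the Hedgehog members 0.07, beside a median of -0.05 over all genes. Relative to that median the Notch mean stood 0.016 higher and the Hedgehog mean 0.12 higher, and with quantile normalization 0.023 and 0.11 higher. Taking each member relative to its wild type mean, the Notch genes averaged -0.09, -0.10 and 0.07 on K14ΔNLef1 replicates 1, 2 and 3 and the Hedgehog genes -0.05, 0.12 and 0.13. The wild type arrays spread from -0.04 to 0.04 for Notch and from -0.08 to 0.08 for Hedgehog. Notch minus Hedgehog was thus -0.04, -0.22 and -0.06 in K14ΔNLef1 (SD 0.098) and -0.04, 0.08 and -0.04 in wild type (SD 0.069), a mean difference of -0.10. Since the members were chosen with results of these data known, no p is given for these means. The sign of the Notch mean turned with scaling, to 0.07 after equalising the array medians.

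**Figure D4:**
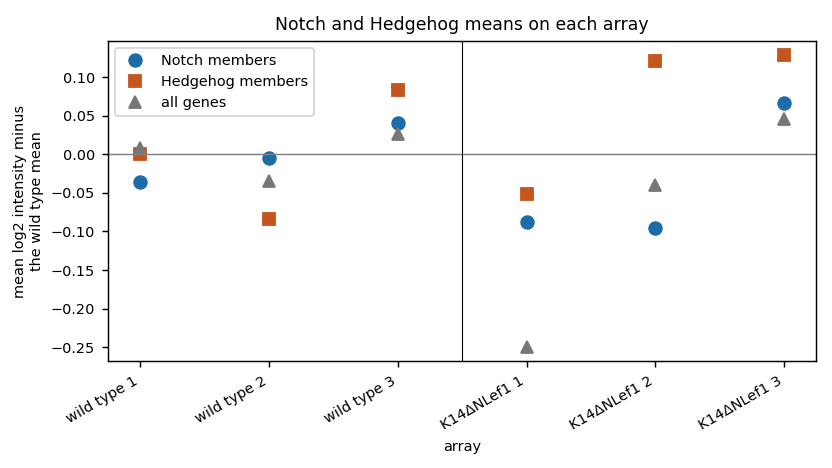
Mean log2 intensity on each array minus the wild type mean of each gene (vertical axis), over the 24 Notch members (circles), the 11 Hedgehog members (squares) and all genes (triangles). On K14ΔNLef1 replicate 1 all genes averaged -0.25, below both pathways at -0.09 and -0.05, and on K14ΔNLef1 replicate 2 the Notch and Hedgehog means lie farthest apart.

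The probe sets show how far a gene's parts went together. Of the 474 member probe sets, 0 passed (limma, adjusted over 109751 probe sets) beside 0.19% of all. At an unadjusted limma p under 0.05 there were 22, or 4.64% beside 8.13% of all, and 59 had no overlap between genotypes, 12.4% beside 14.6%. In Jag1, 27 of 29 probe sets were lower, from -1.50 to 0.77 with a median of -0.57, and 7 of the 27 did not overlap. In Notch1, 31 of 39 were higher, from -0.19 to 0.92 with a median of 0.24. In Notch4 27 of 34 were higher, in Ptch1 17 of 23, and in Notch3 24 of 34 and in Maml3 7 of 8 were lower. Probe sets of a gene share the RNA and the array, so these counts are no test.

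With diffSplice, which asks whether the probe sets of a gene differ in their change, 0 of the 35 members passed beside 0.754% of the 9818 genes tested, and without K14ΔNLef1 replicate 1 again 0, beside 1.43%. At an unadjusted diffSplice p under 0.05 there was 1, Maml3, with p of 0.0379 and an adjusted p of 0.742, beside 5.87% of all genes tested. Its probe sets ranged from -1.84 to 0.55.

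Single probe sets with the largest departures are named after their values were seen. In Notch3, probe set 5066042 read 9.84, 9.95 and 10.19 in wild type and 8.81, 8.86 and 8.76 in K14ΔNLef1, a difference of -1.18 with a limma adjusted p of 0.188, the smallest among the member probe sets. In Notch2, probe set 5475925 read 8.04, 8.03 and 7.79 against 4.56, 5.94 and 6.93, a difference of -2.14 (limma adjusted p of 0.303). Both were lower on every transgenic array. In Disp1, probe set 4419370 read 5.07, 5.43 and 5.12 in wild type and 4.36, 8.27 and 8.97 in K14ΔNLef1. It was high on replicates 2 and 3 and low on replicate 1, and without replicate 1 it passed, with a difference of 3.41 and a limma adjusted p of 0.0325. The array left out is thus the transgenic one on which this probe set was low. The share of all probe sets that passed in that fit is not given here. Over all genes 2.12% passed without that array, beside 1.16% with all arrays. The other 5 Disp1 probe sets differed by -0.49 to 0.14, and the positions of the probe sets were not analysed here.

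**Figure D5:**
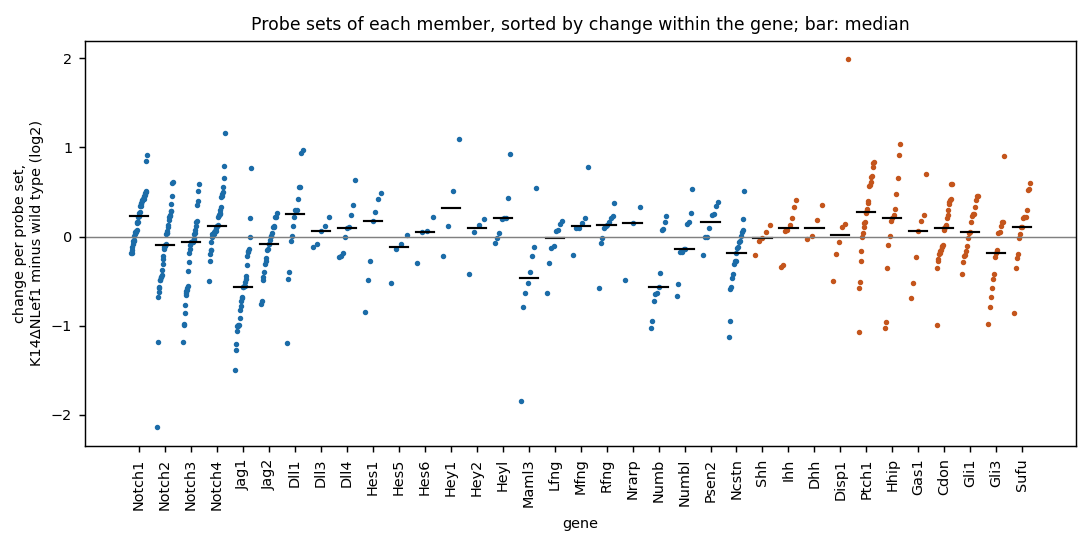
Difference per probe set, K14ΔNLef1 minus wild type (log2, vertical axis), sorted within each member, with a bar at the median, Notch genes in blue and Hedgehog genes in orange. The Jag1 median lies at -0.57, and single probe sets of Notch2, Maml3 and Disp1 reach -2.14, -1.84 and 1.99.

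Other genes of the pathways gave the same count. Of 36 further Notch pathway genes 21 were measured and 0 passed, and 4 had an unadjusted limma p under 0.05, beside 11.8% of all genes. As deposited 6 of the 21 were higher, beside 42.8% of all genes, and 11 of the 21 under either other scaling. The smallest p was that of Fbxw7, a ubiquitin ligase subunit that marks cleaved Notch for destruction, at 9.05, 8.70 and 8.54 in wild type and 7.21, 7.59 and 8.13 in K14ΔNLef1, a difference of -1.12 (SE 0.27) with a limma adjusted p of 0.121. For Fbxw7 the limma adjusted p was 0.0543 after equalising the array medians and 0.0621 after quantile normalization. With 1 array left out it ran from 0.0631 to 0.395. Of 34 further Hedgehog genes 22 were measured and 0 passed, with 2 at an unadjusted limma p under 0.05, beside the same 11.8%. The smallest p was that of Scube2, which helps to release Hedgehog ligands, at 7.67, 7.56 and 7.08 against 7.92, 8.50 and 8.43, a difference of 0.85 (SE 0.24) with a limma adjusted p of 0.190. For Scube2 the limma adjusted p was 0.0596 and 0.0574 under the same scalings, and 0.0619 to 0.591 with 1 array left out. The median difference was -0.10 in the Notch list and -0.009 in the Hedgehog list, beside -0.05 over all genes.

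Of 9 measured genes listed as responding to Notch in epidermis, 2 fell and 7 did not pass, beside 0.833% of all genes that fell. The list was chosen with earlier results of these data known, so this comparison is no test. It was not split by the direction of the response, so its mean does not give a direction of Notch activity. Cdkn1a, the cell cycle inhibitor p21, read 10.19, 10.03 and 9.99 in wild type and 8.49, 8.79 and 9.16 in K14ΔNLef1. Every transgenic value lay below every wild type value, and the gene fell by 1.26 (SE 0.21) with a limma adjusted p of 0.0339. Cdh13, which encodes T-cadherin, read 9.07, 9.51 and 9.42 against 7.58, 8.13 and 8.18, and fell by 1.37 (SE 0.23) with a limma adjusted p of 0.0334. Neither call held in every fit with 1 array left out. The differences in those fits ran from -1.44 to -1.10 for Cdkn1a and from -1.50 to -1.18 for Cdh13. Over all genes 131 passed with all arrays, 239 without K14ΔNLef1 replicate 1, and 28 to 77 without any other array. Cdkn1a had limma adjusted p of 0.173, 0.149 and 0.155 without wild type replicate 1, 2 and 3, 0.107 without K14ΔNLef1 replicate 2, and passed without K14ΔNLef1 replicate 1 or 3 (0.0293 and 0.0385). Cdh13 passed only without K14ΔNLef1 replicate 1 (0.0269), and otherwise had 0.0605 to 0.179. On K14ΔNLef1 replicates 1, 2 and 3 the mean of these 9 genes was -1.09, -0.35 and -0.16, so replicate 1 was lowest. The 11 measured suprabasal keratinocyte markers averaged -0.61, 0.05 and 0.16 there and -0.05 to 0.09 in wild type, with 6 lower of which 1 fell, and their part in the list's values was not tested. The 1 that fell was Krt77, a keratin gene, with a difference of -1.97 and a limma adjusted p of 0.0102, while among the 5 higher markers Tgm3 and Calml3 differed by 1.14 and 0.85 with limma adjusted p of 0.129 and 0.177. The 4 genes on both lists, Krt1, Krt10, Ivl and Lor, differed by -0.74, -0.60, -0.53 and 0.45 and did not pass. Of 10 measured genes that respond to Hedgehog, 0 passed and 7 were higher, beside 42.8% of all genes that were higher. Their median was 0.24, beside -0.05 over all genes, and 4 of the 10 were among the lowest 25% of genes. At an unadjusted limma p under 0.05 there was 1 of the 10, beside 11.8% of all genes. That 1 was Ccnd1, cyclin D1, with a difference of -0.81 (SE 0.24) and a limma adjusted p of 0.214.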

How the data were processed

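Expression was measured on 6 exon arrays, 3 per genotype. Per the labels' protocols, RNA taken after cell sorting was amplified and labelled with biotin. The sample titles call the keratinocytes unfractionated, and which cells the sorting kept is not described here. The deposited table holds 1 linear intensity per probe set and array, for which RMA, Affymetrix Power Tools and build mm9 are named per the submitters' processing notes, with versions and any filter not given in the sources used here. Intensities were turned into log2 values.

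Of 114330 probe sets, 109751 had 1 symbol in the platform annotation, 834 several and 3745 none listed. Older symbols of 1228 genes were updated through the GRCm38.p6 gene table, and 11245 of 11280 genes were found in it. The mean over each gene's probe sets went into limma 3.58.1 under R 4.3.3 (lmFit, eBayes, diffSplice with at least 3 probe sets, two-sided), with Benjamini-Hochberg adjustment over the whole table, a threshold of 0.05 and no filter on low values. A filter leaving out the lowest 25% of genes would keep 33 of the 35 members.

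The values on every array are given for the member with the largest difference in each role, those with an unadjusted p under 0.05 and those whose genotypes do not overlap. Hes1, the named suprabasal markers and single probe sets were added after their values were seen. Genes of the further pathway and responsive lists are named where they passed or, failing that, by the smallest p, and cell type markers are given as list means. The members and lists were chosen with earlier results of these data known. The limma p-values set the difference between the genotypes against the spread of arrays within them, moderated over the whole table.

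The fits were tested on simulated data. Alternatives covered scaling, gene summary, filters, eBayes settings, array weights, blocks, threshold and each array left out. Tables and plots used Python 3.11.15, pandas 2.3.3 and matplotlib 3.10.9. The number of arrays limits the precision.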

Additional observations from a re-analysis of the deposited data

How the results depend on the processing

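Among the members, 0 genes passed under every alternative but array weights, where 1 did, Jag1. The probe set count was 0 in all but the fits without K14ΔNLef1 replicate 1, where it was 1, also with the other arrays quantile normalized (added after seeing the data), and the diffSplice count stayed 0 throughout. The share of all probe sets that passed in those fits is not given here. The mean of the Notch members was 0.070 with the arrays at the same median and 0.078 with quantile normalization, and that of the Hedgehog members 0.17 under both (0.175 and 0.168). With 1 array left out the Notch mean ran from -0.092 to -0.010, the Hedgehog mean from 0.024 to 0.125, and Notch minus Hedgehog from -0.139 to -0.049.

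Over all genes 131 passed, beside 234 with the same median, 201 with quantile normalization, 1296 with array weights, 236 at a threshold of 0.1, 238 with quantile normalization without K14ΔNLef1 replicate 1, and 28 to 239 with 1 array left out. With the replicate block 75 passed. The deviations of same-numbered arrays correlated at -0.16, -0.17 and 0.036, and 1 of 6 arrays correlated best with its own number. Those of arrays with adjacent numbers in their descriptions, the other block used, correlated at 0.199, -0.075 and -0.007. With 3 arrays per genotype these values cannot show whether the arrays were paired. Over the further pathway genes and the genes that respond to either pathway, 2 passed, Cdkn1a and Cdh13 of the Notch-responsive list, beside 1 with the median of probe sets, 12 with array weights, 1 with the replicate block, 0 with a block of adjacent numbers, and 0 to 2 with 1 array left out.

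Small differences turned sign in 20 of the 40 named genes, none of them past the threshold. With the arrays at the same median and with quantile normalization these were Hes1 (0.072 and 0.101), Hey2 (0.098 and 0.056), Lfng (0.021 and 0.025), Numbl (0.034 and 0.015), Shh (0.092 and 0.065) and Gas1 (0.071 and 0.059), and with the latter also Jag2 (0.015). With the median of probe sets they were Dll3 (-0.060), Dll4 (-0.114), Hes1 (0.010), Lfng (0.092), Numbl (0.056), Shh (0.061) and Ihh (-0.180). With brighter probe sets only they were Hes1 (0.035), Hes6 (-0.121), Heyl (-0.015), Lfng (0.066), Nrarp (-0.484), Numbl (0.136), Psen2 (-0.031) and Disp1 (-0.194). With array weights they were Dll4 (-0.027), Hes1 (0.076), Hes6 (-0.265), Rfng (-0.144) and Ihh (-0.010). With quantile normalization without K14ΔNLef1 replicate 1 they were Notch2 (0.0013), Dll3 (-0.087), Hes1 (0.165), Hes6 (-0.052), Mfng (-0.026) and Ihh (-0.087). The causes were not tested. With 1 array left out, differences ran from -0.074 to 0.173 for Dll3, -0.190 to 0.166 for Hes1, -0.105 to 0.180 for Hes6, -0.139 to 0.118 for Hey2, -0.255 to 0.065 for Lfng, -0.035 to 0.203 for Rfng, -0.098 to 0.053 for Nrarp, -0.069 to 0.067 for Shh, -0.057 to 0.161 for Ihh, -0.031 to 0.606 for Disp1, -0.172 to 0.134 for Gas1, -0.206 to 0.208 for Cdon and -0.035 to 0.191 for Sufu.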
